A study of Homo sapiens with 4 samples.

Results

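Cytosolic heat shock proteins were described through 10 genes of the 61806 in the gene table, chosen by name: HSPA1A, HSPA1B, HSPA8, HSPH1, HSP90AA1, DNAJB1, HSPB1, CRYAB, BAG3 and HSF1. Poly(A) RNA was sequenced from 2 human bone cancer lines held in suspension, the chondrosarcoma line JJ012 and the osteosarcoma line 143B, to ask how melatonin acts on cells that have lost attachment. Each line gave 1 untreated control library and 1 library of cells treated with 1 mM melatonin for 72 h, 4 libraries in all. No vehicle is named in the labels for the controls. Each line is a single cell line and stands for no other tumor of its kind.

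There were no replicates. The difference between 2 libraries therefore has no replicate check and no p-value, and every interval below covers counting error only. Intervals are exact (Clopper-Pearson) 95% intervals. Those of the differences between the lines in melatonin response are 95% intervals from a normal approximation instead. Levels are given in FPKM, which scales counts to a gene's exonic length and to the library total, and CPM scales them to the library total alone. The log2 fold change is that of FPKM + 1, and it understates the change of low genes. A gene was compared where either library of the pair had 1 FPKM or more, and a gene is said to have risen or fallen where the log2 fold change reached 0.58 in size, the fold used in the study.

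The libraries held 15889564 to 19218343 counts in genes, and 13198 to 14477 genes reached 1 FPKM. Mitochondrially encoded genes held 6.78% of counts in untreated JJ012 and 4.35% after melatonin, against 1.63% and 2.46% in 143B. The labelled cell types rest on few of their defining markers. The cartilage transcription factor SOX9 stood at 15.06 FPKM in untreated JJ012, but the cartilage matrix genes ACAN and COL2A1 did not exceed 0.02 FPKM in either JJ012 library, and 2 of 7 cartilage markers reached 1 FPKM in the untreated cells. SOX9 was as high in untreated 143B, at 15.48 FPKM, and the 7 cartilage markers summed to 17.75 FPKM in untreated JJ012 and 17.26 FPKM in untreated 143B. In untreated 143B, 2 of 7 bone markers reached 1 FPKM, and SP7 and IBSP, which mark osteoblasts, had 0 counts. The 7 bone markers summed to 94.74 FPKM in untreated JJ012 and 6.97 FPKM in untreated 143B, so that the sum was higher in the chondrosarcoma line. Most of the JJ012 sum came from SPP1, at 79.39 and 0.40 FPKM, and COL1A1, at 10.92 and 0.49 FPKM. SP7 and IBSP had 8 and 4 counts in untreated JJ012. RUNX2 was lower in JJ012 (3.02 against 4.28 FPKM), as was BGLAP (0.81 against 1.44 FPKM), and ALPL was level (0.35 and 0.36 FPKM). Of 5 blood cell markers, CD3E alone reached 1 FPKM, at 9.73 and 3.28 FPKM in the control and melatonin libraries of JJ012, while PTPRC, carried by nearly all white blood cells, stayed at or under 0.14 FPKM. The 3 endothelial markers summed to 0.93 to 2.40 FPKM and the 3 epithelial markers to 0.05 to 1.40 FPKM. The part of these cell types in the results was not tested.

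Heat shock proteins hold client proteins in a foldable state. HSP70 chaperones such as HSPA8 and HSPA1A bind short hydrophobic stretches in an ATP cycle, J-domain proteins such as DNAJB1 start the cycle, and exchange factors such as HSPH1 and BAG3 end it. HSP90 takes over later clients, many of them kinases and receptors, and small heat shock proteins such as HSPB1 and CRYAB hold unfolded protein without ATP. Under proteotoxic stress the transcription factor HSF1 forms trimers and binds heat shock elements, which are inverted repeats of the unit GAA, and the inducible members of the group are transcribed.

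Heat shock elements were looked for in the promoter windows of RefSeq (build GRCh38.p14), which run from 250 bases before to 50 bases after a gene's start, and 8 of the 10 genes had a window. Both forms of a pair of units, GAANNTTC and TTCNNGAA, were searched, together with exact runs of 3 units, that is GAANNTTC followed by NNGAA or TTCNNGAA followed by NNTTC. Each form reads the same on both strands or is the other's reverse complement, and each run of 3 units contains both forms of the pair. A run of 3 units lay in the windows of 2 of the 8 genes, HSPA8 and HSP90AA1, and in 0.608% of the 27305 genes with windows. A pair lay in 6 of the 8, and in 16.2% of those genes. HSPH1 and BAG3 had no match of either kind in their windows. The matches before the start are shown because the genes described below differ in the number and length of their exact matches. Units with a mismatched base were not searched, so longer or further elements that hold such a unit would be missed. Capitals mark the matched bases, and all are written 5′ to 3′ on the gene's strand.
HSPA8, chr11:123062346-123062374, minus strand: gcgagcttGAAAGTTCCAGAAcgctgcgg
HSPA8, chr11:123062171-123062199, minus strand: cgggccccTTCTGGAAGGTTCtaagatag
HSP90AA1, chr14:102087104-102087133, minus strand: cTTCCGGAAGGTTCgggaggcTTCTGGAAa
DNAJB1, chr19:14518436-14518475, minus strand: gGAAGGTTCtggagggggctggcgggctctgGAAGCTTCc
HSPA1A, chr6:31815429-31815452, plus strand: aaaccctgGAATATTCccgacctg
HSPA1B, chr6:31827625-31827648, plus strand: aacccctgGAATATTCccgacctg
HSPB1, chr7:76302483-76302506, plus strand: taacgagaGAAGGTTCcagatgag

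The HSPA8 matches began 230 and 55 bases before the start, and the HSP90AA1 matches began 88 bases before the start of the second of its 2 windows. The HSPA1A and HSPA1B pairs were the same 8 bases at nearly the same place, 106 and 105 bases before the start. Their 250 bases before the start were 93.6% identical. In GENCODE 29 the HSPA1A, HSPA1B and HSPB1 stretches lie outside genes. The HSPA8 and HSP90AA1 stretches lie wholly or partly in exons of longer transcripts of the same genes, and the DNAJB1 stretch lies in introns of DNAJB1 and of TECR on the other strand. A match of letters is a description and not a bound site, and no binding was measured.

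In untreated cells the group was led by the same 3 genes in both lines. HSPA8, the constitutive HSP70, stood at 267.01 FPKM in JJ012 and 282.69 FPKM in 143B, which ranked it 87 and 91 among all genes. HSP90AA1, the stress-responsive cytosolic HSP90, followed at 130.57 and 140.70 FPKM. HSPB1, also called HSP27, was the highest of the group in JJ012 at 286.78 FPKM and the third in 143B at 33.19 FPKM. HSPA8, HSP90AA1 and HSPB1 together held 79.7% of the group's counts in untreated JJ012 and 86.1% in untreated 143B. In both melatonin libraries HSPA8 was the highest, at 176.93 FPKM in JJ012 and 306.11 FPKM in 143B.

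After these, HSPA1A was highest in JJ012 at 53.53 FPKM, before BAG3 at 24.92, HSPA1B at 18.63, DNAJB1 at 18.12, HSPH1 at 14.53, HSF1 at 13.97 and CRYAB at 6.93 FPKM. In 143B the order was BAG3 at 24.01, HSF1 at 19.93, HSPH1 at 10.64, HSPA1B at 7.18, DNAJB1 at 6.92, HSPA1A at 4.40 and CRYAB at 0.04 FPKM. HSPB1 and HSPA8 in JJ012, HSPA1B and DNAJB1 in both lines and HSPH1 and HSF1 in JJ012 lay within 10% of each other. With 1 library a group, the spread between cultures that such neighbours would have to exceed is not known.

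**Figure D1:**
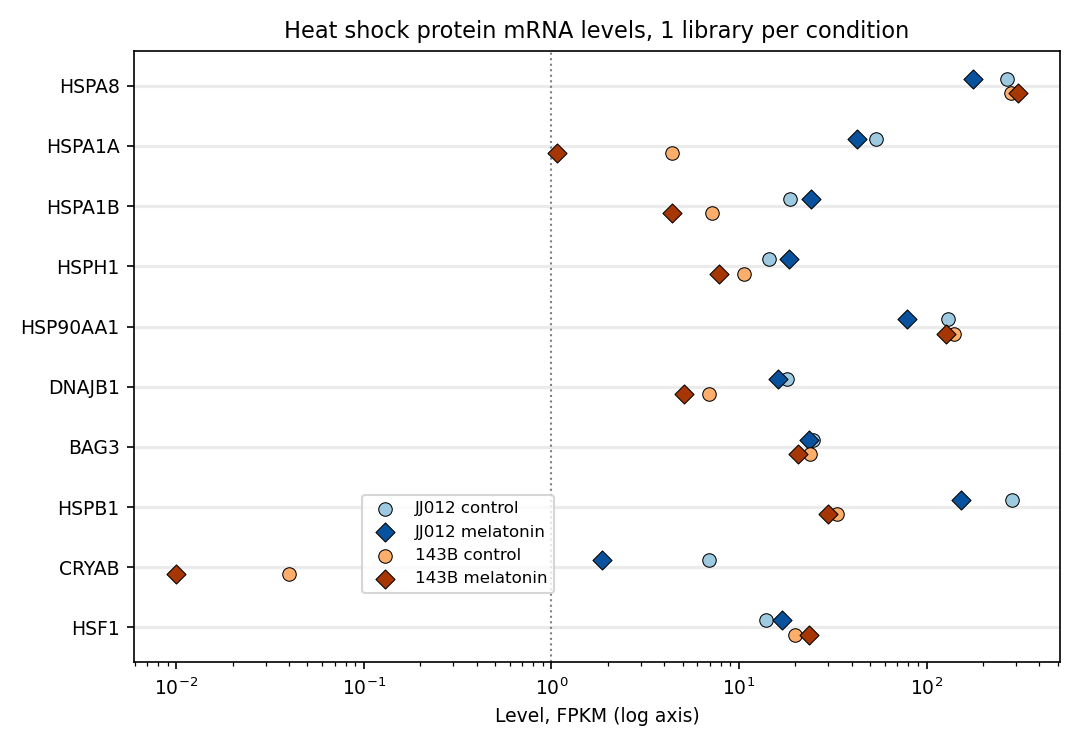
Level of the 10 cytosolic heat shock genes in each of the 4 libraries, in FPKM on a log axis, with 1 point per library. HSPA8, HSP90AA1 and HSPB1 sit at the top, and HSPA1A, HSPB1 and CRYAB sit far lower in both 143B libraries than in both JJ012 libraries.

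Between the untreated lines, 5 of the 10 genes were higher in JJ012 by at least the fold and 0 were lower. They were HSPA1A, HSPA1B, DNAJB1, HSPB1 and CRYAB. CRYAB reached 1 FPKM in JJ012 alone, so that it could hardly do other than count as higher there. Of all 16929 genes compared between the untreated lines, 68.7% passed the fold, 41.3% higher and 27.4% lower in JJ012, so that a share of 5 in 10 is near the background. The median log2 fold change was 0.84 over the 10 genes and 0.29 over all genes compared. On scales that bring that median of all genes near 0 (TPM and CPM scaled by TMM), HSF1 was also past the fold, lower in JJ012, and the split became 5 higher and 1 lower. With the trend over exonic length removed, BAG3 joined it, at 5 higher and 2 lower. This comparison shares its control libraries with the melatonin comparisons below.

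The sizes differed more than the count. HSPA1A had 2473 counts in untreated JJ012 and 168 in untreated 143B, a CPM ratio of 12.2 (interval 10.4 to 14.3). HSPB1 had 8945 and 856 counts, a ratio of 8.64 (interval 8.05 to 9.28). The log2 fold changes, 3.34 and 3.07, lay above those of 98.6% and 98.0% of all genes compared. CRYAB, the small heat shock protein also known as alphaB-crystallin, had 584 counts in untreated JJ012 against 3 in 143B, a ratio of 161 with a counting interval of 54.8 to 783. Its 143B value was at the floor of 3 counts, so that the size of this ratio is uncertain. DNAJB1 and HSPA1B were 2.62 times (interval 2.43 to 2.83) and 2.60 times (interval 2.27 to 2.97) as high in JJ012.

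HSPA8, HSP90AA1 and BAG3 were close between the untreated lines in CPM. The log2 CPM ratio of JJ012 over 143B was -0.08 for HSPA8 (interval -0.11 to -0.06), -0.11 for HSP90AA1 (interval -0.14 to -0.07) and 0.05 for BAG3 (interval -0.06 to 0.17). Relative to the median of all genes compared, the log2 fold changes were -0.37 for HSPA8, -0.39 for HSP90AA1 and -0.23 for BAG3. The sign for BAG3 turned under 5 other scalings, for example to -0.32 with TPM. HSF1 itself was lower in JJ012, with 13.97 against 19.93 FPKM and a log2 fold change of -0.48.

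In JJ012, 4 of the 10 genes fell after melatonin, namely CRYAB, HSPB1, HSP90AA1 and HSPA8, and 0 rose. Of all 15794 genes compared in JJ012, 38.2% passed the fold, 18.6% falling and 19.6% rising, so that much of the transcriptome differed between these libraries. The median log2 fold change was -0.24 over the 10 genes and 0.01 over all genes compared. With TPM, where the median of all genes moved to 0.21, 2 genes were past the fold downward (CRYAB and HSPB1) and 2 upward (HSPA1B and HSPH1). Taken relative to that median, the TPM values were -1.72 for CRYAB, -0.85 for HSPB1, -0.66 for HSP90AA1, -0.53 for HSPA8, 0.44 for HSPA1B and 0.40 for HSPH1.

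In 143B, HSPA1A and HSPA1B fell, 2 of the 9 genes compared, and 0 rose. Of all 14135 genes compared in 143B, 12.7% passed the fold, 6.65% falling and 6.09% rising. The median log2 fold change was -0.21 over the 9 genes and 0.03 over all genes compared. CRYAB was not compared in 143B, where its 3 control counts and 1 melatonin count were at and under the floor of 3 counts.

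**Figure D2:**
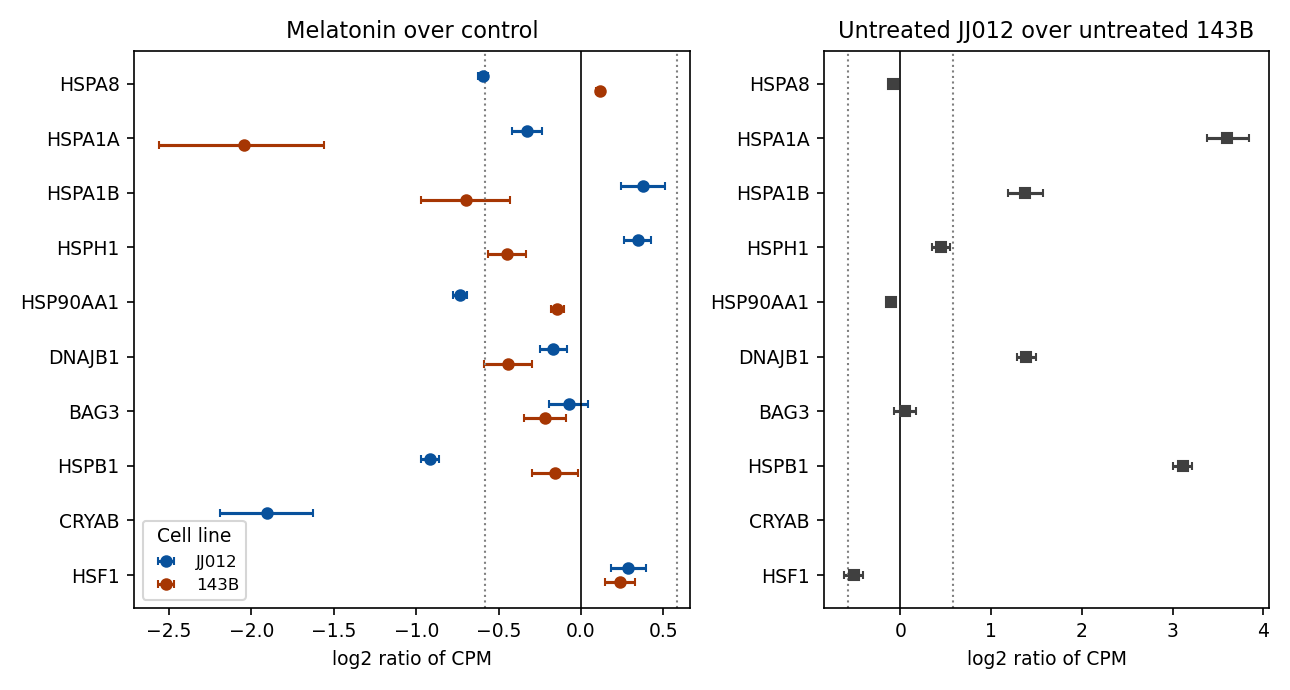
Log2 ratio of CPM with exact 95% counting intervals, for melatonin over control in each line (left) and for untreated JJ012 over untreated 143B (right), with 1 library on each side of a ratio and dotted lines at 0.58 in either direction. CRYAB is drawn for JJ012 melatonin only, since a 143B library at the floor enters its other ratios. HSPA8, HSP90AA1 and HSPB1 lie at -0.59, -0.73 and -0.92 in JJ012 and nearer to 0 in 143B, and HSPA1A lies at -2.04 in 143B.

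Among the HSP70 chaperones, the constitutive HSPA8 fell in JJ012 and the inducible HSPA1A and HSPA1B fell in 143B. HSPA8 (ENSG00000109971, hg38 chr11:123057489-123063230, minus strand) fell in JJ012 from 24883 to 13850 counts, that is from 267.01 to 176.93 FPKM, with a log2 fold change of -0.59 that only just passed the fold. In 143B it stood at 282.69 FPKM before and 306.11 FPKM after melatonin, a log2 fold change of 0.11. In FPKM the JJ012 melatonin library was thus the lowest of the 4, and the other 3 lay close together. On other scales untreated JJ012 was itself below untreated 143B, at a log2 fold change of -0.46 with TPM and -0.43 with CPM scaled by TMM. HSPA8 pseudogenes in the table had at most 22 counts each in any library. The fall in JJ012 was -0.32 with TPM and -0.51 with CPM scaled by TMM, under the fold on both scales.

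HSPA1A (ENSG00000204389, chr6:31815543-31817946, plus strand), one of the genes for stress-inducible HSP70, had 168 counts in untreated 143B and 44 after melatonin, with 4.40 and 1.07 FPKM. This was a log2 fold change of -1.38, with 1.01% of the genes compared in 143B lower still, and a CPM ratio of 0.242 (interval 0.170 to 0.340). In JJ012 it had 2473 counts before and 1654 after, with 53.53 and 42.62 FPKM and a log2 fold change of -0.32, short of the fold. Both JJ012 libraries stood above both 143B libraries.

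HSPA1B (ENSG00000204388, chr6:31827738-31830254, plus strand), its neighbour, fell in 143B from 287 to 191 counts. The FPKM were 7.18 and 4.42, and the log2 fold change was -0.59. In JJ012 it had 901 and 982 counts, with 18.63 FPKM before and 24.17 FPKM after melatonin and a log2 fold change of 0.36. The 4 libraries kept the order of the lines, with both JJ012 values above both 143B values.

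The counts of HSPA1A and HSPA1B are uncertain one against the other. Their longest open reading frames were identical at 1922 of 1926 bases (99.8%), and 63.2% of the 150-base windows of HSPA1A transcripts and 66.0% of those of HSPA1B occurred in the other gene, so that most reads cannot be placed by sequence alone. HSPA1B also overlaps the unnamed gene ENSG00000285565 on the same strand over 1421 bases, which itself had 0 to 4 counts. Summed, the pair had 455 counts in untreated 143B and 235 after melatonin, a log2 CPM ratio of -1.06 (interval -1.30 to -0.83). In JJ012 the sum went from 3374 to 2636 counts, a log2 CPM ratio of -0.10 (interval -0.18 to -0.03). Between the untreated lines the sum was 6.13 times as high in JJ012 (interval 5.56 to 6.78). The fall of the summed pair in 143B therefore does not rest on how shared reads were split between HSPA1A and HSPA1B. The direction of HSPA1B in JJ012 is not given by the sum. Summing does not restore shared reads that were dropped or counted for another gene. Of the HSPA1A and HSPA1B windows, 27.3% and 32.5% also occurred in the gene AL671762.1. How such reads were counted is not given in the sources used here, so the summed levels could be too low.

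HSPH1 (ENSG00000120694, chr13:31134973-31162388, minus strand), the HSP110 exchange factor of HSP70, had the signs of HSPA1B but passed the fold in neither line. It stood at 14.53 and 18.45 FPKM in JJ012 and at 10.64 and 7.80 FPKM in 143B, before and after melatonin. The log2 fold changes were 0.32 and -0.40. With the trend over exonic length removed, the JJ012 value was 0.08, and with TPM it was 0.61.

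DNAJB1 (ENSG00000132002, chr19:14514769-14560391, minus strand) is the J-domain partner that stimulates the ATPase of HSP70. It stood at 18.12 and 16.14 FPKM in the JJ012 control and melatonin libraries and at 6.92 and 5.09 FPKM in those of 143B, log2 fold changes of -0.16 and -0.38. Neither passed the fold, and the JJ012 sign turned to 0.11 with TPM. DNAJB1 overlaps TECR on the other strand over 43307 bases of its span, and TECR had 1621 and 680 counts in JJ012 and 400 and 502 in 143B. Whether counting used strand is not given in the sources used here.

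BAG3 (ENSG00000151929, chr10:119651380-119677819, plus strand), an exchange factor that hands HSP70 clients to selective autophagy, had the flattest profile of the group. Its levels were 24.92 and 23.65 FPKM in JJ012 and 24.01 and 20.67 FPKM in 143B. The log2 fold changes were -0.07 and -0.21, and the JJ012 interval of the log2 CPM ratio ran from -0.19 to 0.04. The JJ012 sign turned under TPM (0.20), under TMM scaling (0.00) and with the length trend removed (0.14).

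HSP90AA1 (ENSG00000080824, chr14:102080742-102139699, minus strand) fell in JJ012 from 12790 to 6467 counts. The FPKM were 130.57 and 78.59, and the log2 fold change was -0.73. In 143B it had 140.70 FPKM before and 127.34 FPKM after, a log2 fold change of -0.14. As with HSPA8, the JJ012 melatonin library was the lowest in FPKM and the other 3 lay close together. With TPM the melatonin value in JJ012 was -0.46, under the fold, and untreated JJ012 over untreated 143B was -0.49. HSP90AB1, the constitutive cytosolic HSP90 and not one of the 10 genes, stood at 337.28 and 336.95 FPKM in JJ012 and at 439.13 and 401.22 FPKM in 143B.

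Both small heat shock proteins of the group, HSPB1 and CRYAB, fell in JJ012. HSPB1 (ENSG00000106211, chr7:76302673-76304295, plus strand) went from 8945 to 3977 counts and from 286.78 to 151.79 FPKM, a CPM ratio of 0.529 (interval 0.510 to 0.549) and a log2 fold change of -0.91. In 143B it had 33.19 and 29.72 FPKM, a log2 fold change of -0.15. Short genes tended to lower fold changes in JJ012 (Spearman's rho with exonic length 0.24 across the 15794 genes, which are not independent replicates), and HSPB1, with 1623 exonic bases, is shorter than the other 9 genes. With that trend removed its JJ012 value was -0.56, just under the fold.

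CRYAB (ENSG00000109846, chr11:111908564-111923722, minus strand) fell in JJ012 from 584 to 131 counts and from 6.93 to 1.85 FPKM. The log2 fold change of -1.48 was the largest fall of the group in JJ012, and the CPM ratio was 0.267 (interval 0.219 to 0.323). CRYAB overlaps HSPB2 on the other strand, and HSPB2 had 0 or 1 count in every library.

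HSF1 (ENSG00000185122, chromosome 8), the regulator, was a little higher after melatonin in both lines without passing the fold. It had 1424 and 1458 counts in JJ012, or 13.97 and 17.02 FPKM, and 1680 and 2138 counts in 143B, or 19.93 and 23.48 FPKM. The log2 fold changes were 0.27 and 0.23. HSF1 activity is set largely by trimer formation and phosphorylation of the protein, which mRNA levels do not measure.

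The differences between the lines in their melatonin response were compared directly on the log2 CPM ratio, as JJ012 minus 143B. The 2 melatonin comparisons share no library. On the FPKM scale, 6 of the 9 genes compared in both lines differed by at least 0.58, while 39.7% of the 11822 genes compared in both lines did. The value was higher in JJ012 for HSPA1A, at 1.715 (interval 1.228 to 2.203), for HSPA1B, at 1.07 (interval 0.78 to 1.37), and for HSPH1, at 0.79 (interval 0.65 to 0.93). It was lower in JJ012 for HSPB1, at -0.76 (interval -0.91 to -0.61), for HSPA8, at -0.71 (interval -0.75 to -0.67), and for HSP90AA1, at -0.59 (interval -0.65 to -0.53). HSF1 and BAG3 differed by 0.05 and 0.14, with intervals that held 0. With no replicates, none of these differences was tested against the spread between cultures.

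As a share of all counts, the 10 genes went from 0.304% to 0.212% in JJ012 and from 0.249% to 0.248% in 143B. The log2 ratio of these sums was -0.52 in JJ012 (interval -0.54 to -0.50) and -0.00 in 143B (interval -0.02 to 0.02). HSPA8 held 40.5% to 59.8% of the group's counts, and without it the ratios were -0.47 and -0.16. In bulk RNA, fewer cells of a kind and less RNA of a gene per cell cannot be told apart.

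Ratios of FPKM between 2 genes of the same library are free of the library total. HSPA1A over HSPA1B was 2.87 (interval 2.66 to 3.10) in untreated JJ012 and 1.76 (interval 1.63 to 1.91) after melatonin, and 0.613 (interval 0.504 to 0.744) and 0.241 (interval 0.170 to 0.336) in 143B. It was thus above 1 in both JJ012 libraries, below 1 in both 143B libraries, and lower after melatonin in each line. This ratio is exposed to the assignment of shared reads described above.

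The balance of constitutive to inducible HSP70 differed between the lines. HSPA8 over HSPA1A was 4.99 in untreated JJ012 and 4.15 after melatonin, and 64.3 and 287 in 143B. Over HSPA1A and HSPA1B summed, which does not depend on how reads were split between them, it was 3.7 and 2.65 in JJ012 and 24.4 and 55.8 in 143B. Any shared reads missing from that sum would make these ratios too high. HSPA8 over its exchange factor HSPH1 was 18.4 and 9.59 in JJ012 but 26.6 and 39.2 in 143B, so that it was lower after melatonin in JJ012 and higher in 143B. HSP90AA1 over HSP90AB1 was 0.387 in untreated JJ012 (interval 0.379 to 0.396) and 0.233 after melatonin (interval 0.227 to 0.240). In 143B the same ratio was 0.320 and 0.317, with intervals that overlapped. HSPB1 over CRYAB in JJ012 was 41.4 (interval 38.1 to 45.1) before and 82.1 (interval 69.0 to 98.4) after melatonin.

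**Figure D3:**
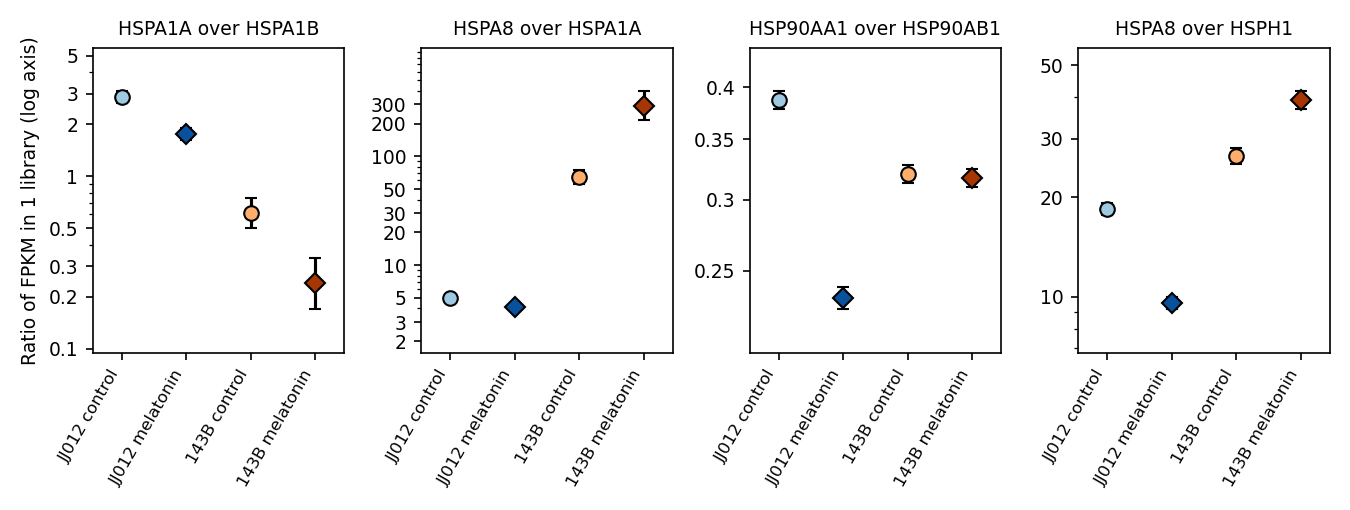
Ratio of FPKM between 2 genes within each of the 4 libraries, on log axes, with bars for exact 95% counting intervals (some are hidden by the points). HSPA8 over HSPH1 is lower after melatonin in JJ012 (18.4 to 9.59) and higher in 143B (26.6 to 39.2), and HSP90AA1 over HSP90AB1 is 0.387 and 0.233 in JJ012 and 0.320 and 0.317, with overlapping intervals, in 143B.

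The other genes of chaperone biology were taken as 116 genes in 11 lists, and some lists share genes. In JJ012, 104 were compared, 12 rose and 15 fell, with a median log2 fold change of -0.06. The share past the fold, 27 of 104, was below the background of 38.2%. With TPM the split was 26 higher and 10 lower, and with CPM scaled by TMM 18 higher and 13 lower. The median of all genes compared in JJ012 was 0.21 with TPM and 0.03 with CPM scaled by TMM. In 143B, 103 were compared, 3 rose and 0 fell, with a median of 0.06, against a background of 12.7%. Under each of the other scalings tried 1 fell, and under centring on the median gene 1 rose.

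The lists nearest to the 10 genes differed from one another in JJ012. Of the 8 other small heat shock proteins listed, 5 were compared and 4 of them fell, where 18.6% of all genes compared fell. HSPB3 and HSPB6 had reached 1 FPKM in the control library alone, so that they could hardly do other than fall. HSPB7 fell from 331 to 92 counts (5.39 to 1.78 FPKM), HSPB6 from 103 to 22 counts, HSPB3 from 19 counts to 0, and HSPB11 from 21.81 to 13.85 FPKM. With the trend over exonic length removed, HSPB11 was at -0.44, under the fold. HSPB8, the partner of BAG3 in selective autophagy, was the exception at 6.79 and 8.48 FPKM. Between the untreated lines all 5 were higher in JJ012, and HSPB3, HSPB6, HSPB7 and HSPB8 had 0 to 5 counts in the 143B libraries and were compared through JJ012 alone. HSPB11 carries the family name but is a part of the intraflagellar transport machinery of cilia.

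Of the other HSP70 and HSP110 genes, 0 of 5 compared passed the fold in either line (medians 0.21 in JJ012 and 0.05 in 143B). Of all genes compared, 38.2% passed it in JJ012 and 12.7% in 143B. HSPA6, a strictly heat-inducible HSP70, had 24 and 6 counts in JJ012 and 8 and 1 in 143B, under 1 FPKM throughout. Of 13 J-domain genes compared in JJ012, DNAJC13, which acts on endosomes, rose from 8.56 to 17.93 FPKM and the others were under the fold. Of 18 genes for HSP90 and its cochaperones, CHORDC1 rose from 2.53 to 5.82 FPKM and CDC37, which delivers kinases to HSP90, fell from 113.34 to 64.75 FPKM in JJ012, while 0 passed the fold in 143B. None of the 14 CCT and prefoldin genes, which fold actin and tubulin, passed it in either line.

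Of 7 BAG proteins and other cofactors of HSP70, 2 rose in JJ012 (median 0.47), where 19.6% of all genes compared rose. The larger rise was that of BAG2, from 3.17 to 8.82 FPKM. Of 9 heat shock factors and regulators of HSF1 compared in JJ012, 4 rose and 2 fell, against 19.6% and 18.6% of all genes compared. Their median was 0.53, and 0.20 with the trend over exonic length removed. The acetyltransferase EP300 rose from 5.11 to 12.58 FPKM and HSF4 fell from 11.25 to 6.05 FPKM. Among 17 other HSF1 target genes compared in JJ012, 1 rose and 2 fell, shares below those of all genes compared. The rise was again that of CHORDC1, which is also in the list of HSP90 cochaperones. The larger fall was that of the ubiquitin gene UBB, from 12.32 to 4.11 FPKM, and the median was -0.00. In 143B, 0 genes of these 3 lists passed the fold. Of the listed HSF1 target genes, whether compared or not, 17 had a promoter window. A run of 3 units lay in 7 of those 17, against 0.608% of all genes with windows.

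Of 6 genes of chaperone-assisted selective autophagy, the receptor SQSTM1 rose in JJ012 from 101.17 to 161.12 FPKM and the others were under the fold. Of 10 mitochondrial chaperones and proteases, 3 rose in JJ012 and 2 in 143B, where 19.6% and 6.09% of all genes compared rose. DNAJA3, the mitochondrial J-domain protein, rose most in each, to 15.69 FPKM (7.78 in the control) and 8.16 FPKM (5.02 in the control). Of 14 chaperones of the endoplasmic reticulum, 6 fell in JJ012 (median -0.33) and 1 rose in 143B (median 0.24). Of all genes compared, 18.6% fell in JJ012. CRELD2 fell from 17.96 to 6.56 FPKM in JJ012, and MANF, secreted under endoplasmic reticulum stress, rose from 42.37 to 70.57 FPKM in 143B.

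**Figure D4:**
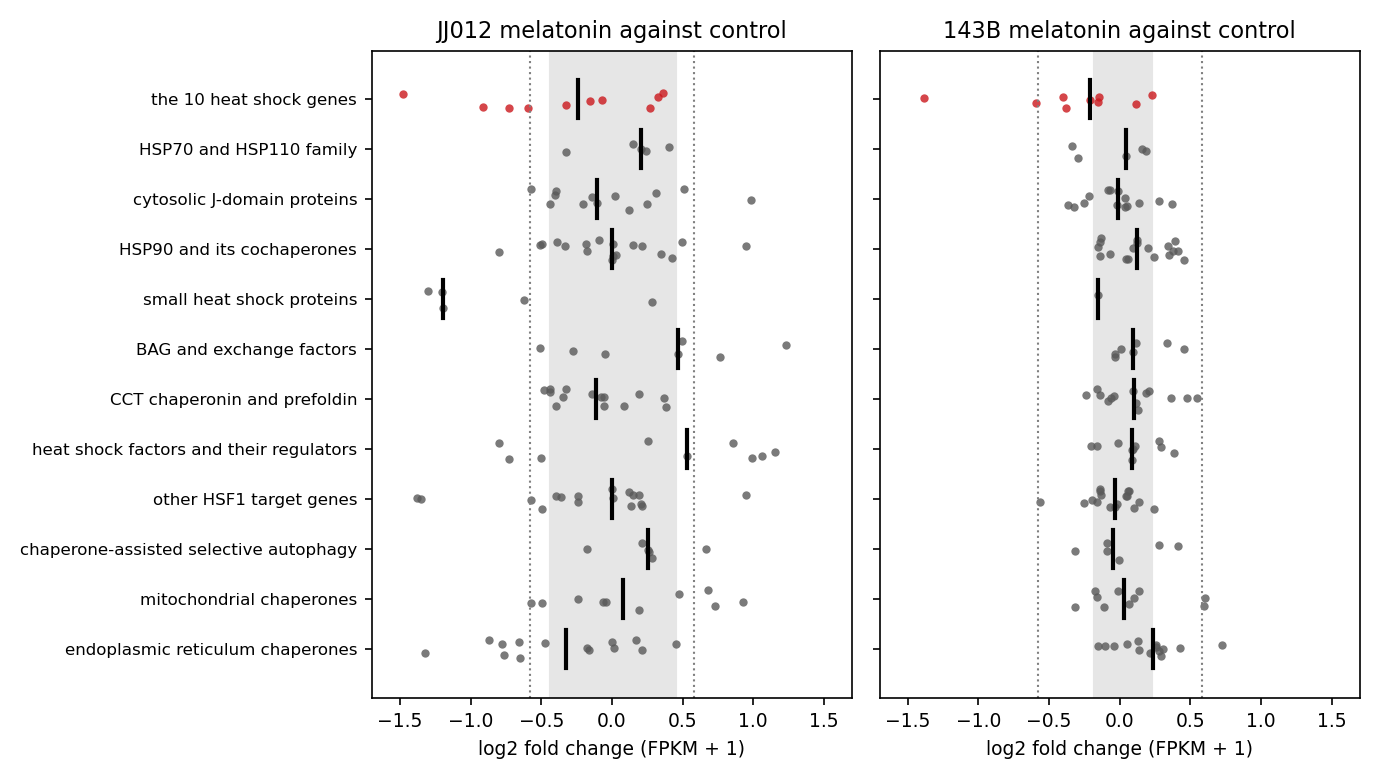
Log2 fold change (melatonin over control, FPKM + 1) of the compared genes of each list, 1 point per gene, with the 10 cytosolic heat shock genes in red, list medians as black bars and the middle 50% of all genes compared as a grey band. In JJ012, 4 of the 5 other small heat shock proteins lie below the grey band, and of the 103 other chaperone genes compared in 143B, 3 lie past 0.58.

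The genes whose pattern over the 4 libraries was most like that of each of the 10 were found by the Euclidean distance between centred log2(FPKM + 1) profiles, over 8425 protein-coding genes that reached 5 FPKM in some library. This is a description over 4 points that carries no test. HSP90AA1 lay nearest to RPL6, a ribosomal protein gene, at a distance of 0.02, and RPL6 stood at 151.44, 90.53, 163.95 and 145.58 FPKM (JJ012 control, JJ012 melatonin, 143B control and 143B melatonin). HSPA8 lay nearest to CERS4 (0.11), a ceramide synthase, followed by RPS15 and TRIM28. HSPA1A had the largest nearest distance of the 10, 0.52 to the fibronectin gene FN1. Its profile was also the furthest of the 10 from a flat one, at 3.99, against 0.61 for HSPA8. HSPA1B lay nearest to the Notch target HEY1 (0.22) and HSPH1 to RGS14 (0.07).

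DNAJB1 lay nearest to LGALS3 (0.07), the gene of galectin-3, and then to the ferritin gene FTH1 (0.11). HSPB1 and CRYAB lay nearest to genes that 143B hardly expressed, namely CFB (0.08) for HSPB1 and LY6D (0.07) for CRYAB. HSPB1 itself stood at 286.78 and 33.19 FPKM in untreated JJ012 and 143B, and CFB at 8.02 and 0.09 FPKM. Their small distance thus rests on the pseudocount of 1 FPKM. BAG3 lay nearest to HSD17B11 (0.03) and HSF1 to PRUNE1 (0.05). Within the group, HSPA1B and DNAJB1 were 0.53 apart, whereas HSPA1A and HSPA1B were 2.25 apart.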

How the data were processed

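Gene counts of the 4 libraries were deposited as whole numbers without normalization, with FPKM derived from them by exonic length and library total, rounded to 2 decimals. The submitters' processing notes name cutadapt 1.9.1, HISAT2 2.2.1, HTSeq 0.6.1, DESeq2 and hg38 without roles. The annotation and strand setting are not given in the sources used here. A column suffix T was taken to mean melatonin, an inference, since the labels do not define it. The 10 genes, the 11 lists and the tests were chosen with earlier results of these data known.

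Fold changes used FPKM with a pseudocount of 1 and a filter of 1 FPKM. CPM ratios with exact 95% intervals came from the counts (scipy 1.17.1), and 3 counts, or 0.156 to 0.189 CPM, were the floor. Without replicates no count model was fitted, and edgeR 4.0.16 gave TMM factors only. The genes named are the 10, per list and melatonin comparison the largest rise and fall past the fold with at least 5 FPKM in 1 of the libraries, and the 3 most alike genes per member, of which some are printed. The other small heat shock proteins, HSPA6 and HSP90AB1 were named after their values were seen. Identity between HSPA1A and HSPA1B was taken on open reading frames of GENCODE 29 transcripts in place of the proteins. In simulated data for the JJ012 comparison (61806 genes, 200 changed by a fold of 2), 93.0% of the changed genes compared passed the fold, as did 3.23% of the unchanged. For the 143B comparison these were 93.8% and 3.28%. The simulated counts held counting error alone, and the changed genes were picked among genes above a minimum expected count. These shares therefore do not measure how often the spread between cultures would carry a gene past the fold.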

Additional observations from a re-analysis of the deposited data

Results flagged for a closer look

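The 3 genes HSPA8, HSPA1B and HSPH1 had opposite directions in the lines, with counting intervals on opposite sides of 0. The log2 CPM ratio (melatonin over control) of JJ012 less that of 143B was -0.71 for HSPA8 (-0.59 in JJ012 and 0.11 in 143B), 1.07 for HSPA1B (0.38 and -0.70) and 0.79 for HSPH1 (0.34 and -0.45). The difference between the lines was not tested, since each value rests on 1 library a side. Up to 70.0% of the 150-base windows of HSPA1B occur in other genes.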

How the results depend on the processing

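With a threshold of 1 in place of 0.58, 1 of the 10 genes passed in JJ012 (4 at 0.58) and 1 in 143B (2 at 0.58), 9 of the other chaperone genes passed in JJ012 (27) and 0 in 143B (3), and 1 gene of the group differed between the lines (6). With a filter of 5 FPKM, 1 gene of the group passed in 143B. The other chaperone genes past the fold in 143B were 7 with a pseudocount of 0.1 FPKM and 5 with CPM scaled by TMM. After subtracting the trend of fold changes over exonic length (a running median), 3 genes of the group differed between the lines. For these settings and the other scalings above, the share of all genes past the fold can also move and is not given. These counts therefore stand without a background. Without HSPA8 the log2 ratio of the summed counts was -0.47 in JJ012, -0.16 in 143B and 0.65 between the untreated lines, against -0.52, -0.00 and 0.29 with it. The cause was not tested. Of the 30 log2 fold changes of the group, 27 kept their sign and 23 their side of the fold under every alternative that gave a value, up to 9 each. A change of CRYAB with melatonin in 143B, at 3 and 1 counts, was not detectable at this depth. No paired analysis was possible because each group has 1 library and the labels give no replicate numbers to pair within a line. A fit over both lines with the line as a block, which leaves 1 residual degree of freedom and asks for a response shared by the lines, was not run.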
